A study of Rattus norvegicus with 43 samples.

Results

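The insulin-like growth factor (IGF) system was followed in rat foreskin from late gestation to the first week after birth, with and without in utero dibutyl phthalate (DBP). Its members were taken by gene symbol: the ligands Igf1 and Igf2, the receptors Igf1r and Igf2r, and the binding proteins Igfbp2 to Igfbp7, 10 genes in all. The table of probe annotations named 10 probes for 9 of these genes among 22523 probes on the Illumina RatRef-12 array, and Igf1 is not analysed here. Of the 10 probes, 9 were detected on enough arrays to be tested, among 13577 tested probes in all.

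IGF1 and IGF2 are small secreted ligands that act through IGF1R, a receptor tyrosine kinase coupled to the PI3K-AKT and MAPK pathways. IGF2R, also known as the mannose 6-phosphate receptor, binds IGF2 and carries it to lysosomes for degradation. The IGF-binding proteins hold the ligands in blood and tissue, and secreted proteases such as pregnancy-associated plasma protein A release them. In rodents Igf2 is imprinted, is expressed from the paternal allele and is best known as a fetal growth factor, while IGF1 under growth hormone takes over after birth.

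All litters were of Sprague Dawley rats whose mothers were gavaged once a day on gestational days 16 to 20 with corn oil alone, 100 mg/kg/day DBP (DBP100) or 500 mg/kg/day DBP (DBP500), a plasticizer known to lower testosterone synthesis in the fetal rat testis. At gestational day 20 (GD20) each dose had a study and controls of its own, with 6 corn oil and 5 DBP100 litters in one and 6 corn oil and 5 DBP500 litters in the other. On postnatal day 5 (PND5) there were 7 litters of each treatment, exposed before birth only. Each of the 43 arrays held RNA of 2 pooled foreskins of a litter, so that all cell types of the tissue contributed to each value.

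Levels are log2 intensities after background correction and quantile normalization over all arrays, and differences between groups are log2 differences with the standard error (SE) of a limma model fitted to all tested probes. The threshold for passing was a Benjamini-Hochberg adjusted p under 0.05 over all tested probes, and 95% intervals are for 1 probe at a time. Array medians ranged from 103 to 193 intensity units, with 10029 to 12078 probes detected per array. The highest signal of an array was 40826 to 55729 units at GD20 and 15335 to 29459 units at PND5. The labels name no array run, slide or scan date, so age and a possible difference between array runs cannot be told apart. For this reason age differences are also given after a median shift, in which each array was moved to a common median and not quantile-normalized, a scaling that moved the median difference of all tested probes in the controls from -0.09 to -0.28. The highest signal split the PND5 arrays into replicates 1 to 4 and replicates 5 to 7 of each treatment, and 0 of the 9 member probes passed between these sets, beside 0.0221% of all tested probes. That comparison used quantile-normalized values, under which probes near the top of every array change little. It therefore cannot show whether bright probes such as Igf2 differed in signal between the sets.

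The 250 bases before the transcription start of 4 members are shown because these genes passed in the same direction with age in the pooled controls, in DBP100 litters and in DBP500 litters, and because Igfbp2 and Igfbp5, which went opposite ways, are direct neighbours on chromosome 9 with 0 annotated genes between them. The windows come from the RefSeq promoter table of the GRCr8 build, in which all 10 genes of the system had an entry. They lie at chr9:81864561-81864810 (plus strand) for Igfbp2, chr9:81914188-81914437 (minus strand) for Igfbp5, chr7:135154669-135154918 (plus strand) for Igfbp6 and chr1:50526628-50526877 (plus strand) for Igf2r. Capitals mark matches, on either strand, to GGGCGG (the GC box bound by Sp1), TATAAA (the TATA box) or AGAACA (the hexamer of the androgen receptor's response element), and 0 of these matches overlap.
Igfbp2: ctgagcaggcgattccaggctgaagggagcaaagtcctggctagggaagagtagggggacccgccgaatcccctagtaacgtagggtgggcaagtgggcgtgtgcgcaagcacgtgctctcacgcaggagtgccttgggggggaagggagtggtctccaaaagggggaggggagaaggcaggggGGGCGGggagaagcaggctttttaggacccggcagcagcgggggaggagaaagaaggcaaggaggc
Igfbp5: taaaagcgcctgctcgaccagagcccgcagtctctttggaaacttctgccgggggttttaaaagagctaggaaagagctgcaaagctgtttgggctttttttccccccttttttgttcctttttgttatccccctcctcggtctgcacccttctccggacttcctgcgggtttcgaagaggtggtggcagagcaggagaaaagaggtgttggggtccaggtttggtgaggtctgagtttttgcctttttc
Igfbp6: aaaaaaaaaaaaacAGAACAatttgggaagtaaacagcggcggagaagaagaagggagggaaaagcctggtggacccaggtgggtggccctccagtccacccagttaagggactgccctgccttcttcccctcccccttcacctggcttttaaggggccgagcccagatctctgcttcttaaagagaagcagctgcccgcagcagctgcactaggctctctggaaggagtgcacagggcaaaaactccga
Igf2r: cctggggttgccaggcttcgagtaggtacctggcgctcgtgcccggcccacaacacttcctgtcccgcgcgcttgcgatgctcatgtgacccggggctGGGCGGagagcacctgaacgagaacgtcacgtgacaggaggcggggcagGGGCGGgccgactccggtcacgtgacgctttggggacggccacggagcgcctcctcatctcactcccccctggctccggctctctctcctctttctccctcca

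The Igfbp2 window held 1 GC box and the Igf2r window 2, while the Igfbp6 window held 1 AGAACA hexamer and the Igfbp5 window none of the 3 motifs. Over 33469 promoter windows of the same length, 30.5% held GGGCGG, 12.9% held TATAAA and 17.5% held AGAACA, so each of these matches is common.

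Igf2, the ligand, gave one of the brightest signals on every array. Its probe ranked between 2 and 24 from the top of the array at GD20 and between 2 and 65 at PND5, and its raw signal was 63.9% to 100.0% of the highest signal of its array. After quantile normalization its level had a low of 14.74, a median of 14.88 and a high of 15.06 in the GD20 controls of the DBP100 study. In the GD20 controls of the DBP500 study these values were 14.85, 14.90 and 14.95, and in the PND5 controls 14.59, 14.90 and 15.06. The groups overlapped throughout, and the PND5 controls differed from the GD20 controls by -0.06 ± 0.08 (SE, 7 against 12 litters, limma adjusted p = 0.489). Among exposed litters the age difference was 0.02 for DBP100 and -0.16 for DBP500, and neither passed.

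For Igf2 the choice of scaling decided the result. Quantile normalization gives probes of equal rank the same value on every array. A probe that stays near the top, as Igf2 did, therefore shows little change under it whatever its raw signal, so that result cannot decide whether Igf2 changed with age. The raw signal of the probe was 32259 to 51326 units at GD20 (median 43198) and 11231 to 26214 units at PND5 (median 15776), with no overlap between the ages. The highest signals of the arrays did not overlap either (40826 to 55729 and 15335 to 29459 units), so the separation is not particular to Igf2. The share of all tested probes with separate raw signals was not counted. Igf2 fell with age after the median shift, by 1.47 in controls (limma adjusted p = 1.25e-12), by 1.21 in DBP100 litters and by 1.79 in DBP500 litters. The 100 brightest tested probes moved alike under that scaling, with a median difference of -1.27 in controls and all 100 of them lower, against a median of -0.03 after quantile normalization. Igf2 thus moved about as far as the other bright probes of these arrays, and its median rank from the top was 9.5 at GD20 and 14 at PND5.

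**Figure D1:**
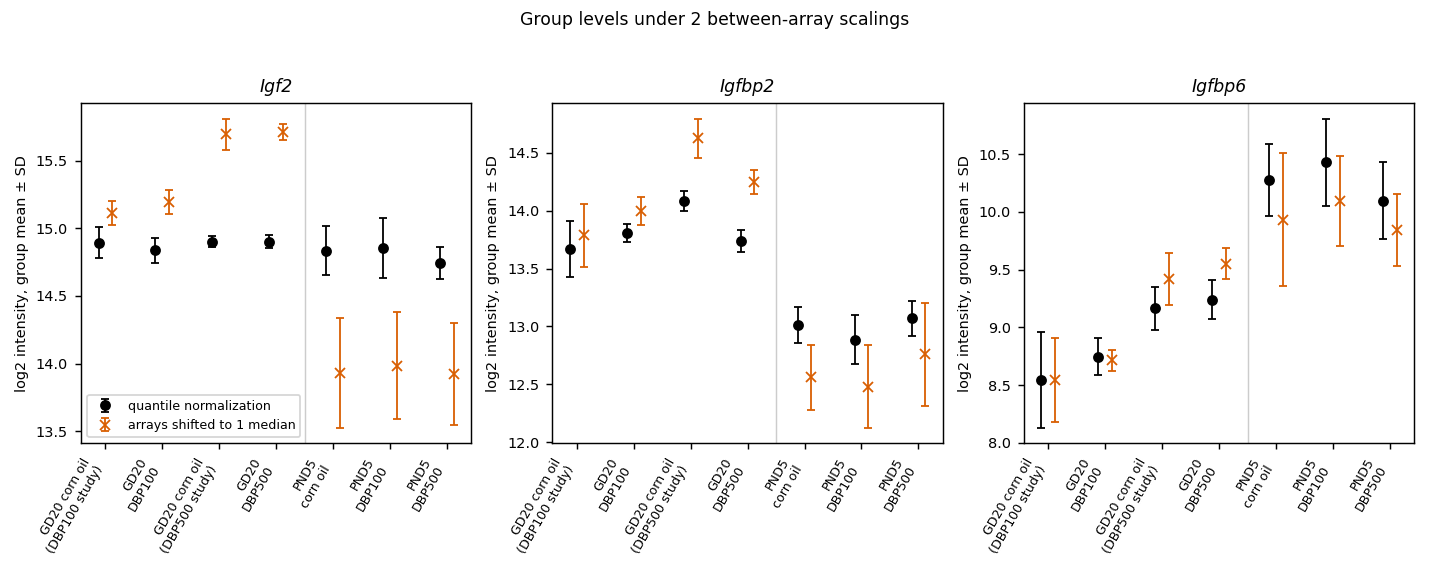
Group means ± SD of the log2 intensity of Igf2, Igfbp2 and Igfbp6 in the 7 groups, with quantile normalization (filled circles) and after the median shift (crosses). Igf2 was level across ages under the first scaling, which leaves little room for change in a probe near the top of every array. It fell by 1.47 in controls under the second, while Igfbp2 was lower and Igfbp6 higher at PND5 under both.

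Across the 9 tested probes, 5 passed between the PND5 and the GD20 controls, 2 higher (Igfbp6 and Igfbp5) and 3 lower (Igfbp2, Igf2r and Igfbp3), or 55.6% beside 61.6% of all tested probes (26.7% higher and 34.9% lower). The share is near that of the array, so the number of members that changed with age says nothing particular about the system. After the median shift, 8 of 9 probes passed, 2 higher and 6 lower, beside 65.4% of all tested probes. That scaling also lowered the share of higher probes among all those that passed from 43.3% to 29%. In the DBP100 litters 6 of 9 passed (background 58.9%) and in the DBP500 litters 5 of 9 (background 55.4%). Igfbp6, Igfbp5, Igfbp2 and Igf2r passed in the same direction in controls, DBP100 litters and DBP500 litters, as 40.7% of all tested probes did. These 3 comparisons share no arrays. They do share the normalization, the estimate of the spread and any difference between array runs, so they are not independent. The single exception under the other scaling was Igfbp6 in DBP500 litters, which no longer passed.

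**Figure D2:**
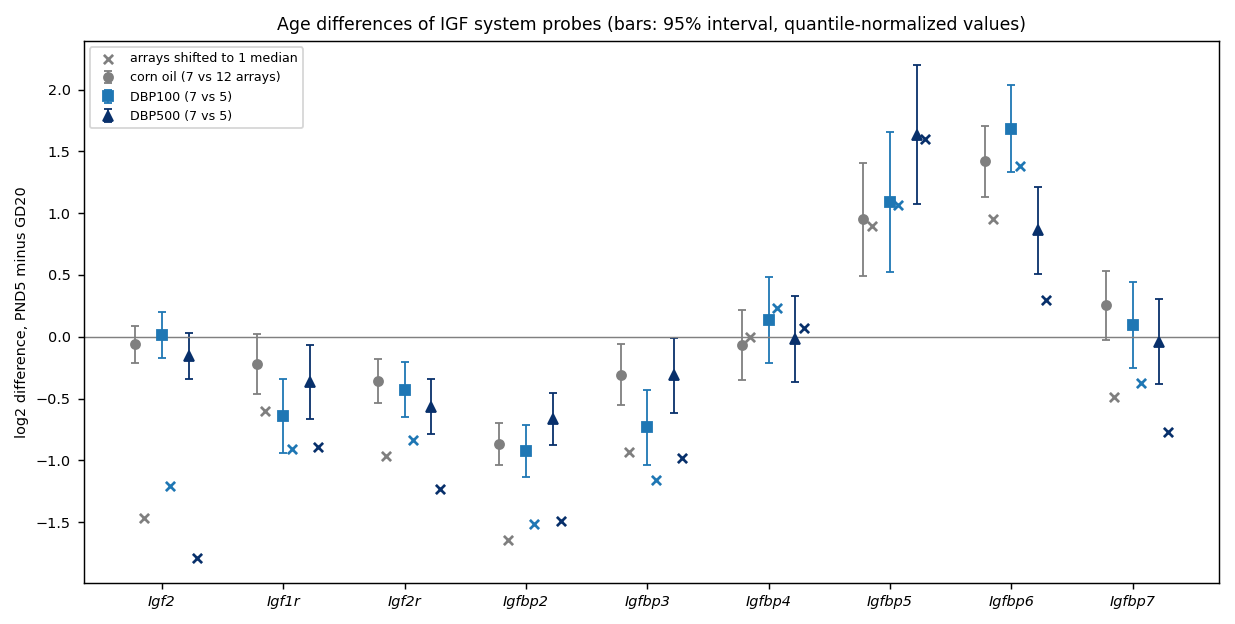
Log2 difference of each member probe between PND5 and GD20 in corn oil, DBP100 and DBP500 litters, with 95% intervals, and crosses for the same differences after the median shift. Igfbp5 and Igfbp6 lie above 0 and Igfbp2, Igf2r, Igfbp3 and Igf1r below it in every comparison and under both scalings, whereas Igf2 and Igfbp7 change with the scaling.

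Of the receptors, Igf2r, which clears IGF2, was lower at PND5 than in the pooled GD20 controls. Its level had a low of 12.002, a median of 12.22 and a high of 12.31 in the GD20 controls of the DBP100 study. In the GD20 controls of the DBP500 study these were 12.44, 12.52 and 12.81, and in the PND5 controls 11.74, 11.96 and 12.26. The PND5 controls thus lay below the second set of GD20 controls but overlapped the first. The difference was -0.36 ± 0.09 (SE, 7 against 12 litters, limma adjusted p = 6.03e-04), and -0.97 after the median shift. By control group it was -0.18 against the DBP100 study, which did not pass (limma adjusted p = 0.153), and -0.54 against the DBP500 study (limma adjusted p = 2.10e-05). Without PND5 replicates 1 to 4, the difference was -0.14 and did not pass (limma adjusted p = 0.231). In exposed litters Igf2r fell by 0.43 (DBP100) and by 0.57 (DBP500).

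Igf1r, the signalling receptor, had a low of 8.90, a median of 8.93 and a high of 9.29 in the GD20 controls of the DBP100 study and 9.07, 9.20 and 9.46 in those of the DBP500 study. In the PND5 controls these values were 8.43, 8.92 and 9.37, with 3 of 7 arrays below all 12 fetal controls and 0 above all of them. The age difference in controls was -0.22 ± 0.12 (SE, limma adjusted p = 0.111) and did not pass, although it did after the median shift (-0.60, limma adjusted p = 6.91e-04). Igf1r fell with age by 0.64 in DBP100 litters and by 0.37 in DBP500 litters (limma adjusted p = 3.10e-04 and 0.0341). Leaving out 1 array at a time, the call in DBP500 litters was lost in 5 of 12 fits, those without GD20 replicate 1 or 3 or PND5 replicate 2, 3 or 6 (adjusted p 0.0508 to 0.112). The control difference passed without PND5 replicate 1 (-0.30, limma adjusted p = 0.0314).

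Igfbp6, a binding protein that prefers IGF2 over IGF1, showed the largest rise among the members against the pooled GD20 controls, although Igfbp5 rose more against those of the DBP500 study (1.63 and 1.11 for Igfbp6). Its level had a low of 8.09, a median of 8.51 and a high of 9.04 in the GD20 controls of the DBP100 study, and 8.94, 9.21 and 9.37 in those of the DBP500 study. In the PND5 controls these were 9.76, 10.28 and 10.67. After quantile normalization all 21 PND5 arrays lay above all 22 GD20 arrays, whatever the exposure, as held for 6.45% of tested probes. The ages overlapped after the median shift, with a low of 9.15 in PND5 controls and highs of 9.66 in GD20 controls of the DBP500 study and 9.68 in GD20 DBP500. The rise in controls was 1.42 ± 0.14 (SE, limma adjusted p = 1.98e-11), or 2.67-fold. It was 1.69 ± 0.18 in DBP100 and 0.86 ± 0.18 in DBP500 litters. After the median shift these rises were 0.95, 1.38 and 0.29, and the last did not pass (limma adjusted p = 0.215). By control group the quantile-normalized rise was 1.73 against the DBP100 study and 1.11 against the DBP500 study. The effect of DBP on Igfbp6 differed between the ages by -0.04 for DBP100 and -0.25 for DBP500. Neither of these passed (limma adjusted p = 0.978 and 0.715).

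Igfbp2, a binding protein that is abundant in fetal tissues and fetal serum of rodents, went the opposite way. Its level had a low of 13.24, a median of 13.76 and a high of 13.85 in the GD20 controls of the DBP100 study, and 13.97, 14.06 and 14.24 in those of the DBP500 study. In the PND5 controls the values were 12.83, 13.03 and 13.22. Of 21 PND5 arrays, 20 lay below all 22 GD20 arrays, and the exception, at 13.25, lay above 1 fetal array at 13.24. The fall in controls was -0.86 ± 0.08 (SE, limma adjusted p = 7.48e-12), or 1.82-fold, and -1.65 after the median shift. Igfbp2 fell by 0.92 in DBP100 and by 0.66 in DBP500 litters, and it passed with both scalings in all of these comparisons. By control group the difference was -0.66 against the DBP100 study and -1.07 against the DBP500 study (limma adjusted p = 3.50e-07 and 1.75e-12).

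Igfbp5, a binding protein found in extracellular matrix and in muscle, was high in all postnatal groups and uneven among the fetal ones. Its level was 6.68, 8.33, 7.47, 7.31, 8.52 and 7.62 in the GD20 controls of the DBP100 study. The GD20 controls of the DBP500 study gave 6.35, 6.49, 6.49, 6.22, 6.64 and 5.54, below every array of the first control group. The probe was detected on 5 of these 6 arrays, on 4 of 5 in the GD20 DBP500 group and on 41 of 43 in all. Differences from these 2 groups thus rest in part on signals not above background. In the PND5 controls the low was 7.67, the median 7.92 and the high 8.31. The pooled age difference of 0.95 ± 0.23 (SE, limma adjusted p = 3.77e-04) therefore joins unlike parts, and it was 0.54 with no background correction. Against the separate control groups, 4 of 9 members passed for the DBP100 study and 5 of 9 for the DBP500 study, beside 54.7% and 59.4% of all tested probes. The difference of Igfbp5 was 0.27 ± 0.26 against the controls of the DBP100 study (limma adjusted p = 0.407) and 1.63 ± 0.26 against those of the DBP500 study (limma adjusted p = 1.20e-06). In exposed litters Igfbp5 rose with age by 1.09 ± 0.28 (DBP100) and by 1.63 ± 0.28 (DBP500).

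Within both exposed fetal groups the level of Igfbp5 went along with the number of probes detected on an array. In the GD20 DBP100 group the arrays with Igfbp5 at 6.38, 5.89 and 5.96 detected 10063, 10156 and 10257 probes, and those at 7.83 and 7.55 detected 11005 and 10494. In the GD20 DBP500 group the levels of 6.40, 6.24, 6.09, 5.95 and 5.07 came with 10799, 10748, 10641, 10434 and 10178 detected probes, in the same order. Among the controls of the DBP500 study the lowest 2 levels, 5.54 and 6.22, were on the arrays with the fewest detected probes (10029 and 10162), and in the DBP100 study the highest 2 levels, 8.52 and 8.33, were on those with the most (11181 and 11131). In the DBP100 study, however, the array with the fewest (10488) was at 7.62, and the lowest level, 6.68, came with 10869. The PND5 groups were mixed. In PND5 controls the array with the fewest (10530) was at 8.03, and that with the most (12016) had the highest level, 8.31. In PND5 DBP100 the highest level, 8.14, came with 10942. In PND5 DBP500 the lowest level, 7.06, came with the fewest (10537). The part of this array property in the Igfbp5 values was not tested. The genes whose deviations from their group means were most like those of Igfbp5 over 43 arrays were Hmga1 (Pearson r = 0.85), Nrep (r = 0.85) and Mapre1 (r = 0.84). For Igf2 they were Tapbp, Dnajc9 and Nelfe (r = 0.69, 0.68 and 0.67), for Igfbp2 Ube2q2l, Dbn1 and Tmem14a (r = 0.70, 0.64 and 0.63), and for Igfbp3 Drap1, Adgrf5 and Bhlhe22 (r = 0.59, 0.59 and 0.55). These values are descriptions, and the points share arrays, labelling and scaling.

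Igfbp3, which carries most of the circulating IGF in adults, had a low of 12.30, a median of 12.61 and a high of 12.94 in the GD20 controls of the DBP100 study. In those of the DBP500 study the values were 11.99, 12.40 and 12.97, and in the PND5 controls 11.90, 12.19 and 12.59, so all 3 control groups overlapped. The fall of 0.31 ± 0.12 (SE) passed narrowly (limma adjusted p = 0.0271), and it was lost in 4 of 19 fits that left out 1 array (GD20 control replicate 1 of the DBP100 study, replicate 3 or 4 of the DBP500 study, or PND5 control replicate 1), with adjusted p of 0.0523 to 0.0831. It did not pass against the GD20 controls of the DBP500 study alone (-0.26, limma adjusted p = 0.113), nor with PND5 control replicates 1 to 4 or 5 to 7 alone (limma adjusted p = 0.0506 and 0.199). In DBP100 litters Igfbp3 fell by 0.73 ± 0.15 (limma adjusted p = 6.16e-05), with all 7 PND5 arrays (11.24 to 12.19) below all 5 GD20 arrays (12.45 to 12.79), a separation downwards found for 16.5% of tested probes. In DBP500 litters the difference of -0.31 did not pass (limma adjusted p = 0.0740).

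Igfbp7, a low-affinity IGF binder of vessel walls and matrix, ranged from 12.55 to 13.43 in the 22 fetal arrays and from 12.35 to 13.65 in the 21 postnatal ones. Its age difference in controls was 0.26 ± 0.14 (SE, limma adjusted p = 0.107) after quantile normalization and -0.49 after the median shift (limma adjusted p = 0.0220), so its direction depended on the scaling. Without PND5 control replicate 1 it was 0.40 after quantile normalization and passed (limma adjusted p = 7.03e-03). Igfbp4, which inhibits IGF action until a protease cleaves it, was near the detection limit. Its tested probe was detected on 38 of 43 arrays at levels of 5.14 to 6.45, and its age difference in controls was -0.07 ± 0.14 (limma adjusted p = 0.686). A second Igfbp4 probe, designed on an expressed sequence tag, was detected on 0 of 43 arrays and was not tested.

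**Figure D3:**
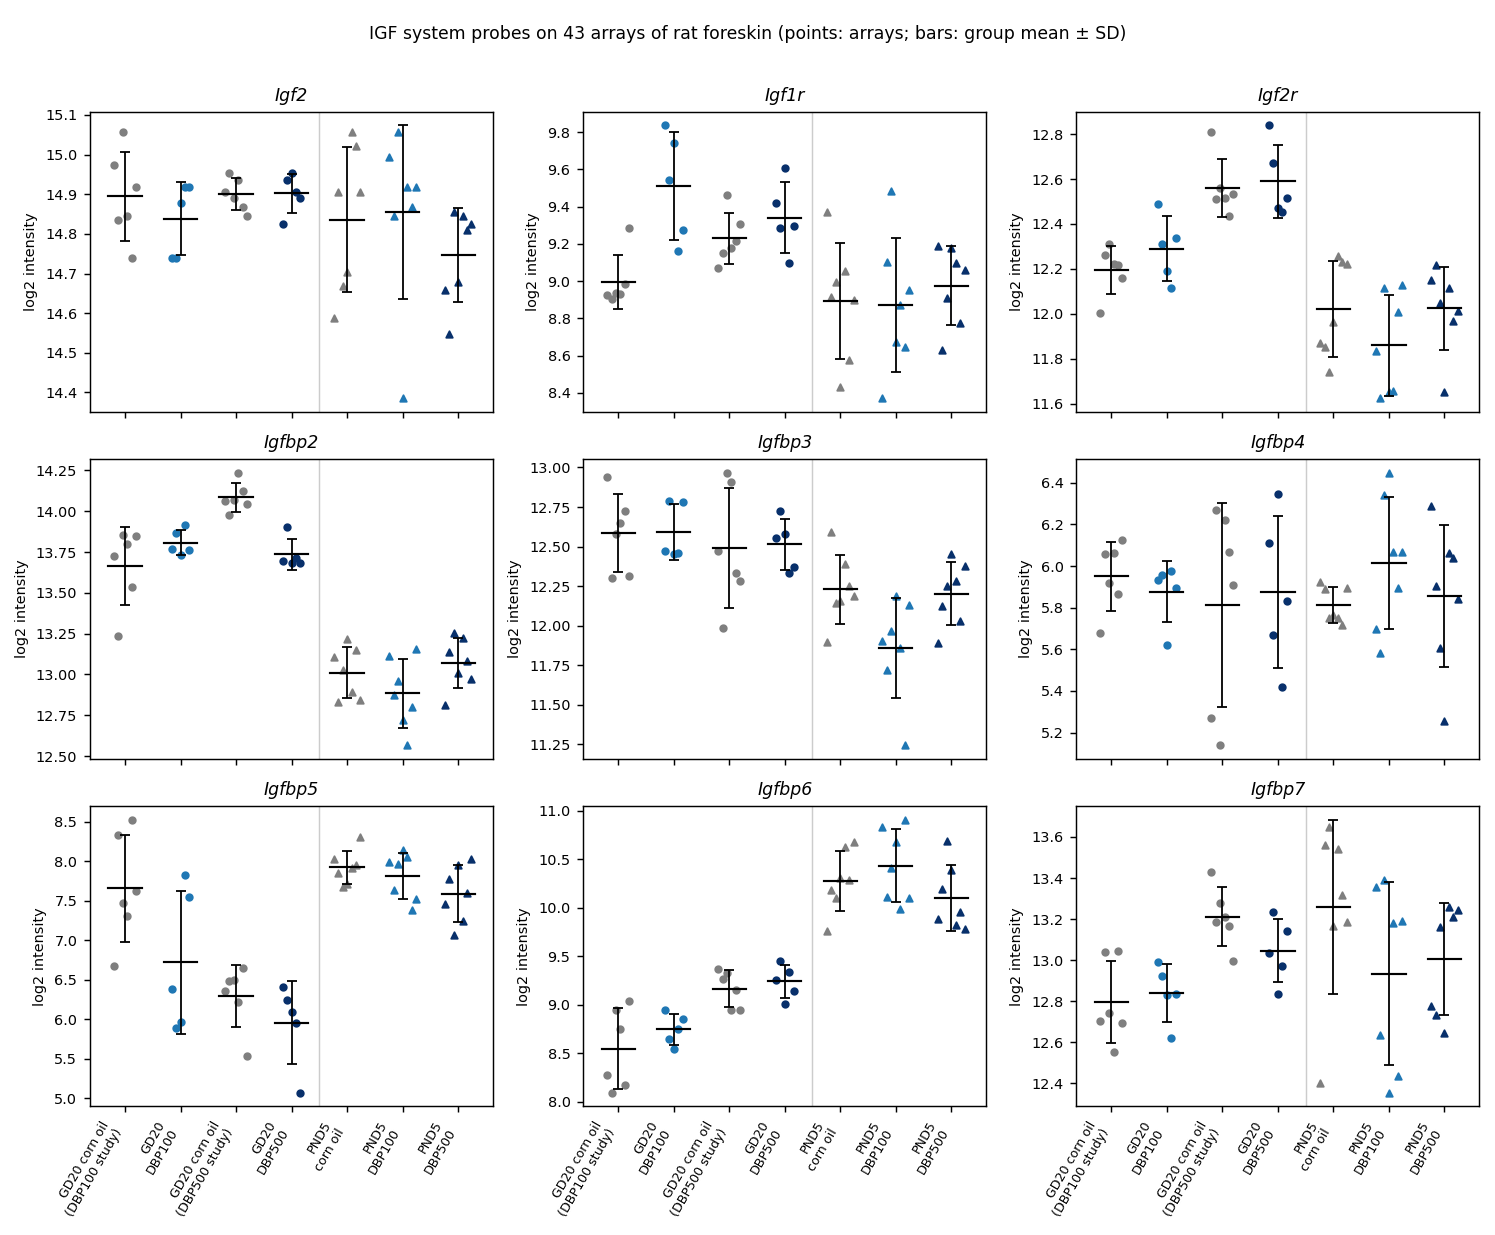
Log2 intensity (quantile-normalized) of the 9 tested member probes on each of 43 arrays, by group, with group mean ± SD. All PND5 arrays lie above all GD20 arrays for Igfbp6 (not so after the median shift), 20 of 21 lie below them for Igfbp2, and the GD20 groups differ from each other for Igfbp5. The level ranges of Igf2 and Igfbp7 overlap between the ages, and their age differences change with the scaling.

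Ordered by their means, the groups of Igfbp6 ran from GD20 controls of the DBP100 study at 8.54, through GD20 DBP100 at 8.75, GD20 controls of the DBP500 study at 9.17 and GD20 DBP500 at 9.24, to PND5 DBP500 at 10.10, PND5 controls at 10.27 and PND5 DBP100 at 10.43. Neighbours in that order overlapped except at the step from GD20 to PND5. For Igfbp2 the order was PND5 DBP100 at 12.88, PND5 controls at 13.01, PND5 DBP500 at 13.07, GD20 controls of the DBP100 study at 13.67, GD20 DBP500 at 13.74, GD20 DBP100 at 13.81 and GD20 controls of the DBP500 study at 14.08. There the single gap between neighbouring groups was below the highest one. For Igf2, Igf1r, Igf2r, Igfbp3, Igfbp4, Igfbp5 and Igfbp7 every group overlapped its neighbour.

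The 2 sets of GD20 controls, which received the same treatment, differed in 4 of 9 member probes, beside 22% of all tested probes. Igfbp2 was higher in the DBP500 study by 0.42 ± 0.10 and Igf2r by 0.37 ± 0.11, in both cases with no overlap between the 6 and 6 arrays, as held for 6.06% of tested probes in that direction. Igfbp6 was higher by 0.62 ± 0.17 (limma adjusted p = 8.28e-03). Igfbp5 was lower by 1.36 ± 0.27 (limma adjusted p = 4.18e-04), again with no overlap, as held for 5.78% of tested probes in that direction. The median shift left 7 of 9 members past the threshold, 6 of them higher, beside 25.3% of all tested probes. That scaling also raised the share of higher probes among all those that passed from 46.9% to 68.3%. Of 4 tested markers of differentiated epidermis, 3 were lower in the controls of the DBP500 study, where their mean log2 level was 7.89 to 8.70 against 8.96 to 9.28 in the DBP100 study. There 1 of 4 basal epidermis markers was also lower (limma adjusted p = 4.96e-03) and 1 of 4 smooth muscle markers higher (limma adjusted p = 0.0339). The part of these markers in the member differences was not tested. Since the studies differ before any exposure, each dose was compared with its own controls.

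Markers of other tissues also moved with age, and their part in the member differences was not tested. All 6 tested skeletal muscle markers, all 4 of adipocytes and all 4 of differentiated epidermis were higher in PND5 controls, and all 3 erythroid markers lower, under both scalings. The mean log2 level of the muscle markers was 5.35 to 8.88 on the GD20 arrays and 9.51 to 11.27 on the PND5 arrays, and that of the adipocyte markers 7.54 to 8.30 and 9.08 to 11.26. For differentiated epidermis it was 7.89 to 9.28 and 10.97 to 11.92, with Casp14 detected on 0 of 12 fetal control arrays, and Adipoq likewise for adipocytes. The erythroid markers had means of 8.59 to 10.33 at GD20 and 7.80 to 9.08 at PND5. Fibroblast markers had means of 13.16 to 13.59 at GD20 and 13.26 to 13.77 at PND5, and of 6 tested, 4 passed higher with age after quantile normalization and 5 lower after the median shift. Of 3 Schwann cell and 3 cartilage markers, 2 each passed lower under both scalings. The Schwann cell marker Pmp22, however, passed higher after quantile normalization (0.25, limma adjusted p = 0.0369). Of 4 smooth muscle markers 3 passed higher, and 2 after the median shift. Markers of basal epidermis (4 tested), endothelium (3) and leukocytes (4) were mixed after quantile normalization, each with 2 higher and 1 lower. After the median shift they had 0, 1 and 1 higher and 3, 1 and 2 lower. The one tested liver gene, Alb, was detected on 3 of 12 fetal and 0 of 7 postnatal control arrays. In such whole-tissue RNA, fewer cells of a type and less RNA per cell cannot be told apart.

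The question of the study was what DBP does to the foreskin, and 0 of 9 member probes passed in any comparison with corn oil or between doses. The background was 0.589% of tested probes for DBP100 and 0.302% for DBP500 at GD20, and 0.081% and 3.67% at PND5. It was 0.0516% between the doses at PND5, 0.133% for the difference between the doses at GD20, and 0% and 0.412% for the difference of the DBP100 and DBP500 effects between the ages. At an unadjusted p under 0.05 the limma fits gave 2, 1, 2, 0, 2, 1, 2 and 1 members in the same order, beside 11.4%, 7.39%, 10.4%, 18.3%, 9.03%, 10.7%, 8.51% and 12.8% of all tested probes. With so few probes passing over the array, 0 of 9 is near the background and says little about the system. The limits are wide for some members: over the 4 comparisons with corn oil, the 95% intervals of Igfbp5 reached from -1.51 to 0.40.

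**Figure D4:**
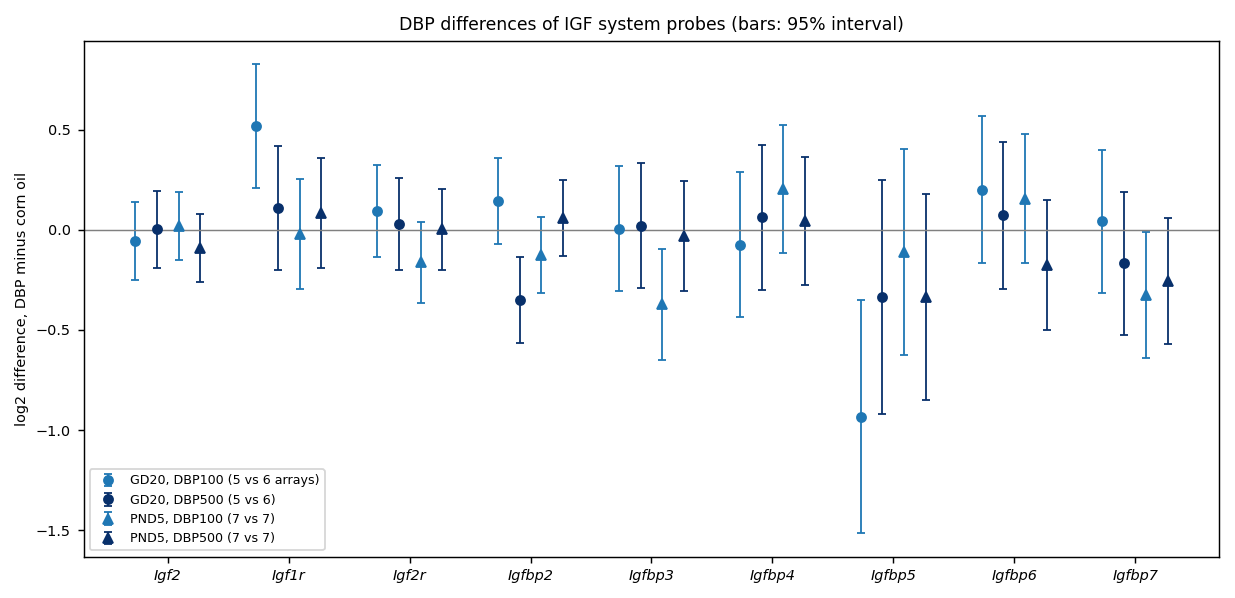
Log2 difference of each member probe between DBP and corn oil litters at GD20 (circles) and PND5 (triangles), with 95% intervals for 1 probe at a time. Igf1r (0.52) and Igfbp5 (-0.93) at GD20 with DBP100, Igfbp2 (-0.35) at GD20 with DBP500 and Igfbp3 (-0.37) at PND5 with DBP100 lie farthest from 0 relative to their intervals, and 0 of 36 differences passed.

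Igfbp2 at GD20 with DBP500 separated exposed from control litters after quantile normalization but did not pass. The 5 exposed litters were at 13.70, 13.90, 13.68, 13.71 and 13.69, and the 6 controls had a low of 13.97, a median of 14.06 and a high of 14.24. Every exposed array thus lay below every control array, as held for 1.12% of tested probes. After the median shift the groups overlapped, with 14.10 to 14.38 in exposed litters and 14.36 to 14.80 in controls. The difference of -0.35 ± 0.11 (SE, 95% interval -0.56 to -0.13) did not pass (limma adjusted p = 0.235). With the authors' processed values of the same arrays it was -0.41 and passed (limma adjusted p = 0.0122). The controls of this study had the highest Igfbp2 of all 7 groups, and the exposed litters lay within the range of the other GD20 control group (13.24 to 13.85) except for the one at 13.90. DBP100 gave 0.14 ± 0.11 at the same age, and the difference between the doses, -0.49 ± 0.15, did not pass (limma adjusted p = 0.189). Between the GD20 DBP500 litters and their controls, 1 of 4 smooth muscle markers passed lower (limma adjusted p = 0.0214). Of 6 fibroblast markers 1 passed higher (limma adjusted p = 0.0125), and all 6 skeletal muscle differences were negative with 0 passing. The part of these markers in the Igfbp2 difference was not tested.

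At GD20 with DBP100, Igf1r was at 9.84, 9.54, 9.74, 9.16 and 9.27 in exposed litters, and its 6 controls had a low of 8.90, a median of 8.93 and a high of 9.29. Of the exposed arrays 3 lay above all controls. The difference of 0.52 ± 0.15 did not pass (limma adjusted p = 0.0984), and it passed when exposed replicate 4 or 5 was left out (limma adjusted p = 0.0257 and 0.0444). Igfbp5, with the array values given above, differed by -0.93 ± 0.29 (limma adjusted p = 0.121), with 3 of 5 exposed arrays below all 6 controls. It passed without control replicate 1 and without exposed replicate 4 or 5, so 1 array decided these calls. Replicates 4 and 5 are also the arrays of this group on which the most probes were detected. DBP500 at the same age gave 0.11 ± 0.15 for Igf1r and -0.33 ± 0.29 for Igfbp5.

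At PND5 the member difference with the smallest p was that of Igfbp3 with DBP100. Its level had a low of 11.24, a median of 11.91 and a high of 12.19 in exposed litters against 11.90, 12.19 and 12.59 in controls, with 3 of 7 exposed arrays below all controls. The difference of -0.37 ± 0.14 did not pass (limma adjusted p = 0.274). With DBP500, Igfbp3 differed from the same controls by -0.03 ± 0.14, and the direct difference between the doses was 0.34 ± 0.14 (limma adjusted p = 0.435). Igfbp6 and Igfbp2, the members with the clearest age differences, differed by 0.16 ± 0.16 and -0.13 ± 0.09 with DBP100 and by -0.18 ± 0.16 and 0.06 ± 0.09 with DBP500.

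The partners of the system were followed in 4 lists of 73 genes, of which 50 were tested. Between the PND5 and GD20 controls 35 of 50 passed, 22 higher and 13 lower, or 70% beside 61.6% of all tested probes. After the median shift 37 passed, 18 higher and 19 lower, and 31 genes passed in the same direction under both scalings. The median difference was 0.06 over the lists and -0.09 over all tested probes. The counts given below for each list stand beside 26.7% higher and 34.9% lower over all tested probes.

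Of 25 tested genes of the signalling list, which also holds the secreted Igfbp1 and the receptors Insr and Insrr, 11 were higher and 6 lower. Among them Pik3cb, a catalytic subunit of PI3K, rose by 2.17 ± 0.15 and Foxo3, a transcription factor that AKT keeps out of the nucleus, by 1.66 ± 0.12 (limma adjusted p = 1.71e-16 and 3.15e-15). Gab1, a docking protein of receptor tyrosine kinases, rose by 1.49 ± 0.17. Of the 12 fetal control arrays Foxo3 was detected on 7 and Gab1 on 5, so their differences rest in part on fetal signals not above background. Pik3r3, a regulatory subunit of PI3K, was detected on 0 of 12 fetal and 6 of 7 postnatal control arrays, which put it at least 1.99-fold higher at PND5. These 4 passed upwards under both scalings.

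Of the proteases and their inhibitors, 3 of 8 tested genes were higher and 3 lower. Pappa, the protease that cleaves IGFBP4 and IGFBP5, fell by 2.0 ± 0.12 (limma adjusted p = 7.97e-18), or 4.0-fold, the largest fall in the 4 lists. Its level was 7.31 to 8.42 over the 22 fetal arrays and 4.88 to 6.28 over the 21 postnatal ones, with no overlap, as held for 5.06% of tested probes in that direction. It fell by 2.04 in DBP100 and by 2.64 in DBP500 litters. Htra1, a serine protease known to cleave IGF-binding proteins, was higher by 0.94 ± 0.13, the urokinase Plau by 0.82 ± 0.15 and cathepsin D (Ctsd) by 0.58 ± 0.11. Plau was detected on 7 of 12 fetal control arrays, so its difference rests in part on fetal signals not above background. After the median shift, Htra1 (0.36) and Ctsd (0.08) no longer passed.

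In the growth hormone axis 3 of 7 tested genes passed, all 3 higher, beside 61.6% of all tested probes. Over the 7 genes, 4 differences were positive and 3 negative, with a median of 0.09. Those that passed were the receptor-coupled kinase Jak2 (1.17 ± 0.10), the feedback inhibitor Socs2 (0.84 ± 0.22) and the growth hormone receptor Ghr (0.66 ± 0.15), with limma adjusted p = 7.98e-13, 1.00e-03 and 1.64e-04. All 3 passed under both scalings against the pooled controls. Against the GD20 controls of the DBP100 study alone Jak2 passed and Ghr and Socs2 did not, and Ghr was itself lower in the DBP500 study controls (-0.67, limma adjusted p = 6.45e-03). Socs2 did not pass with age in DBP500 litters, and it was detected on 9 of 12 fetal control arrays. The partner genes named from the other 3 lists passed against each GD20 control group. Of the Igf2 mRNA-binding proteins and imprinted genes, 5 of 10 were higher and 4 lower. Gatm, which encodes an enzyme of creatine synthesis, was at least 1.37-fold and the zinc finger gene Zim1 at least 1.10-fold higher, each detected on 0 of 12 fetal control arrays. The amino acid transporter Slc38a4 fell by 0.80 ± 0.09 and the zinc finger factor Plagl1 by 0.71 ± 0.10. Dcn, which encodes the matrix proteoglycan decorin and is named because its sign depended on the scaling, rose by 0.60 after quantile normalization and differed by -0.39 after the median shift (limma adjusted p = 7.74e-08 and 0.0130).

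**Figure D5:**
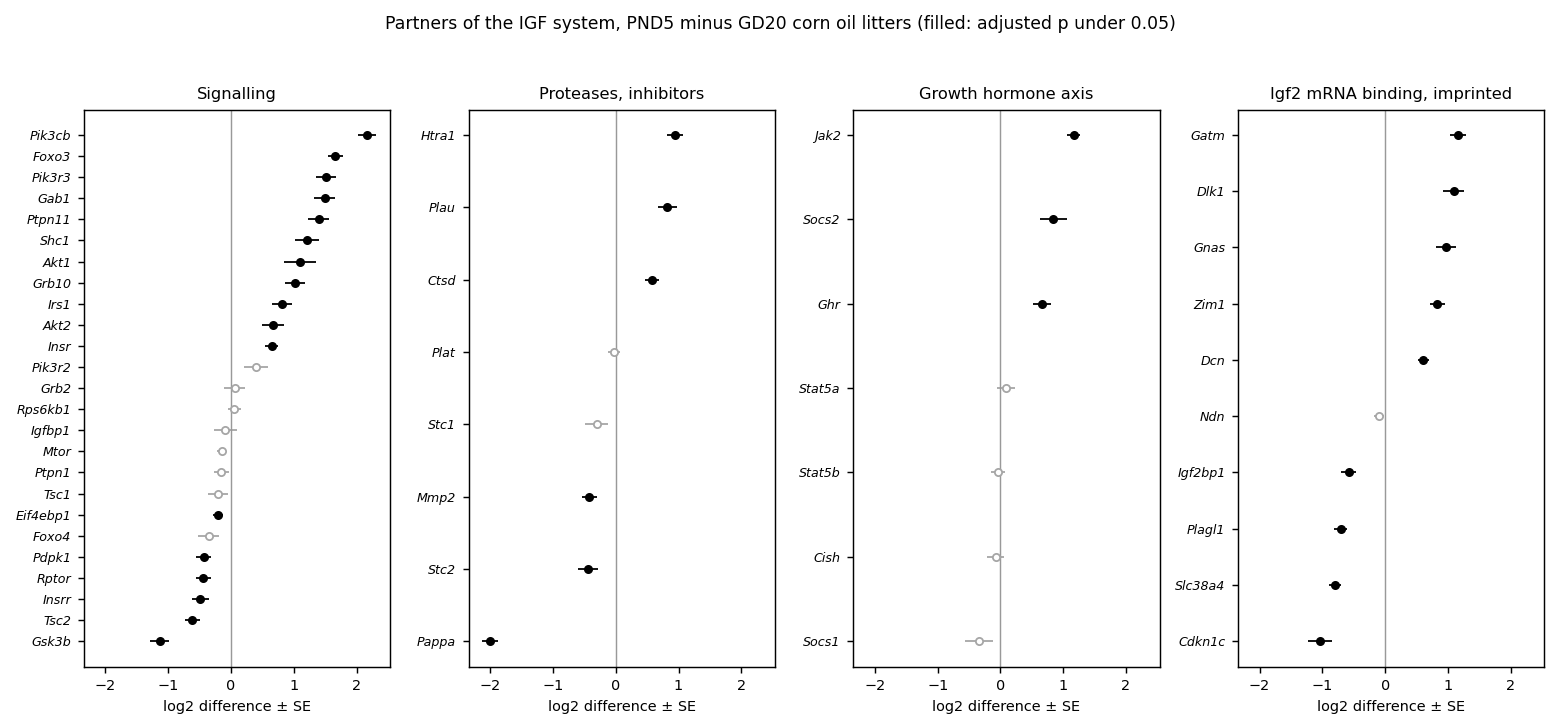
Log2 difference ± SE between PND5 and GD20 corn oil litters for the 50 tested partner genes in 4 lists (quantile-normalized values), filled where the adjusted p was under 0.05. Pappa at -2.0 and Pik3cb at 2.17 stand at the ends. Dcn, a bright gene at 0.60 here, was lower (-0.39) after the median shift.

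With DBP500 at PND5, 4 of the 50 partner genes passed, all lower, or 8% beside 3.67% of all tested probes (2.18% lower). They were Gatm (-0.63 ± 0.14, limma adjusted p = 0.0113), Pappa (-0.53 ± 0.14, limma adjusted p = 0.0240), Zim1 (-0.50 ± 0.13, limma adjusted p = 0.0256) and Socs2 (-0.83 ± 0.25, limma adjusted p = 0.0470). Pappa had a low of 4.88, a median of 5.33 and a high of 5.82 in these litters, detected on 3 of 7 arrays, against 5.62, 5.85 and 6.28 in controls, detected on 7 of 7, and the groups overlapped. Gatm and Zim1 were each detected on 3 of 7 exposed arrays, against 6 and 5 of 7 control arrays, so their differences also rest in part on signals not above background. The call of Socs2 was lost in 11 of 14 fits that left out 1 array. In the same comparison 1 of 4 differentiated epidermis markers passed lower (limma adjusted p = 2.84e-03) and 1 of 3 erythroid markers higher (limma adjusted p = 0.0220). Their mean levels were 10.97 to 11.51 and 8.11 to 9.08 in exposed litters and 11.37 to 11.63 and 7.80 to 8.39 in controls, and their part in the result was not tested. Within PND5 replicates 5 to 7 alone the difference of Pappa was 0.03, and within replicates 1 to 4 it was -0.95. In a fit to the 14 arrays compared 0 of the 4 passed, and leaving out 1 array at a time gave 1 to 7 passing partner genes (2 without control replicate 4 or exposed replicate 1, 1 without exposed replicate 2 or 3, and 7 without exposed replicate 7). At the other dose and age 0 of 50 partner genes passed, where the limma fits passed 0.589% (GD20 DBP100), 0.302% (GD20 DBP500) and 0.081% (PND5 DBP100) of all tested probes.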

How the data were processed

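RNA of 43 litters, 2 pooled foreskins each, was hybridised to single-colour Illumina RatRef-12 arrays, and the labels call the replicates biological. Per the file headers, the deposited table holds intensities that were not normalized, each with a detection p-value. Per the submitters' processing notes limma was used, with no version given. The authors' processed values, used as an alternative on the log2 scale, are linear intensities not centred by gene, which keep each array's ranks (Spearman's rho with the scanner values 1.0), share a median of 153, 124 or 138 within the DBP100 study, the DBP500 study and PND5, and were compared only within these sets. Starting from the intensities, limma 3.58.1 in R 4.3.3 corrected the background from the detection p-values (neqc, offset 16), quantile-normalized all arrays together and took log2. Probes detected at p under 0.05 on at least 5 arrays (13577 of 22523, or 60.3%) were fitted with a model of 7 group means (36 residual and 5.48 prior degrees of freedom), and p-values were adjusted by Benjamini and Hochberg over all of them. The fit was tested on simulated data. The age comparison in controls used both GD20 control groups with equal weight.

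Of all probes 13793 had 1 gene symbol, 0 several and 8730 none. The members, the partner lists and the markers were chosen with earlier results of these data known. All members are named. Of each partner list the 4 genes of smallest p in the age comparison of controls, if they passed, and every gene that passed in an exposure comparison are named, and likeness was ranked by Pearson r of deviations from group means. Dcn was named after its values were seen. A gene with several probes was represented by the probe of highest mean. Where a probe was detected on no array of a group, the fold is a lower bound: the mean of the other group against the mean, per array, of the higher of the lowest detected signal and the probe's own. Same-numbered samples of different groups had deviations that correlated between -0.27 and 0.18, so the numbers were not taken as pairs. With no count of molecules behind an array value, the number of arrays limits the precision.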

Additional observations from a re-analysis of the deposited data

Results flagged for a closer look

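In 70 sets of values (a member probe in a group of 5 to 7 arrays) the highest or lowest array was compared with its neighbour, and 6 stood apart by Dixon's criterion at the 95% level, which chance reaches in about 1 of 20 sets. At the low end these were Igf2 in PND5 DBP100 replicate 4 (14.39, the others 14.85 to 15.06), Igfbp4 in GD20 DBP100 replicate 3 (5.62, the others 5.89 to 5.98) and Igfbp7 in PND5 corn oil replicate 1 (12.40, the others 13.17 to 13.65). At the high end they were Igf1r in GD20 corn oil replicate 6 of the DBP100 study (9.29, the others 8.90 to 8.99), Igf2r in GD20 corn oil replicate 1 of the DBP500 study (12.81, the others 12.44 to 12.56) and Igfbp2 in GD20 DBP500 replicate 2 (13.90, the others 13.68 to 13.71). Each lies on a different array. The Igfbp2 array still lay below all 6 controls of its study.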

How the results depend on the processing

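The choice of scaling between arrays moved the number of members passing with age in controls furthest among the settings tried. After the median shift 8 of 9 members passed in controls and 8 against the controls of the DBP500 study (5 and 5 after quantile normalization), and 7 in place of 4 between the GD20 control groups. The shares of all tested probes in these comparisons were 65.4%, 63.7% and 25.3% after the shift, against 61.6%, 59.4% and 22%. Igfbp7 changed sign in controls (-0.49, or -0.34 with no background correction) and against the controls of the DBP100 study (-0.065), Igf2 in DBP100 litters (-1.21), and Igfbp4 in controls with the median shift and no background correction (0.0074). With no background correction Igfbp5 rose in controls by 0.54 (0.95 as reported), and with detection at p under 0.01 on enough arrays 30 partner genes passed with age (35 as reported), as fewer were tested. Igf2 in controls was 0.10 with PND5 replicates 5 to 7 alone, an alternative chosen after the data were seen, as were replicates 1 to 4 alone and the median shift with no background correction. With the replicate number as a block, though the numbers do not pair the litters, Igf2 in DBP100 litters was -0.005997 and 3 partner genes passed at PND5 with DBP500. The authors' processed values gave 1 member, Igfbp2, at GD20 with DBP500. Of partner genes at PND5 with DBP500, 4 as reported, 1 passed after the median shift, 2 with no background correction, 0 in a fit to those arrays alone, 0 with the authors' values and 1 within replicates 5 to 7, where Pappa was 0.025. The causes were not tested. Leaving out 1 array at a time, 4 to 6 members passed in the age comparison of controls, 3 to 4 and 4 to 6 against the DBP100 and DBP500 studies' controls, 4 to 6 in DBP500 litters and 0 to 2 at GD20 with DBP100, while 34 to 37 partner genes passed with age and 1 to 7 at PND5 with DBP500, and Igf2 in DBP100 litters lay between -0.017 and 0.095. Igfbp4, near the detection limit, is the member on which dim signal limits the comparison most, and Igfbp5 was detected on 41 of 43 arrays.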
